A study of Mus musculus with 6 samples.

Results

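The genes of the collagen chains were examined in RNA-seq libraries of cardiac macrophages. Members were the protein-coding rows of the count table whose symbol is Col, a type number, the letter a and a chain number, and 44 of 54532 genes met this rule. Of these 44, 43 had at least 1 count in any library, 34 passed the count filter and were tested, and 20 reached 1 FPKM (fragments per kilobase of gene length, scaled for depth, the unit in which genes of different length can be compared) in at least 3 of 6 libraries.

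Collagens are trimeric proteins of the extracellular matrix in which chains wind around each other, and some types combine the products of several genes while others are built from that of a single gene. Fibrillar collagens such as types I and III form the tensile fibres of the infarct scar and are made mainly by fibroblasts and myofibroblasts. Type IV collagen forms the sheet of basement membranes around vessels and muscle cells, type VI forms beaded filaments near cell surfaces, and type VIII forms short-chain networks in vessel walls and remodelling tissue. Newly made chains are hydroxylated, folded with chaperones, secreted, trimmed at their ends and cross-linked by lysyl oxidases.

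The cells were CD11b-positive and Ly6G-negative cells of the hearts of 12-week-old C57BL/6 mice, 7 days after permanent occlusion of the left anterior descending coronary artery. The 3 control libraries were made from ITGA5 fl/fl littermates, whose α5 integrin gene carries recombination sites but is still intact. The 3 Myα5KO libraries were made from ITGA5 fl/fl animals that also carried LyzM-Cre, a recombinase driven from the lysozyme M locus and active in myeloid cells, including those outside the heart. Both groups thus carried the floxed alleles, and a group with Cre and no floxed allele was not analysed here. The study's methods describe digestion of individual hearts and enrichment on magnetic columns, and the share of other cell types retained is not stated there. Total counts lay between 15424451 and 18419287. All 3 Myα5KO totals were above all 3 ITGA5 fl/fl totals, and the libraries of a group differed by more than sampling noise in each pair.

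Itga5, the targeted gene, was at 653, 568 and 600 CPM (counts put on a common depth by TMM factors) in ITGA5 fl/fl libraries and at 50.0, 49.0 and 47.1 CPM in Myα5KO libraries. The groups did not overlap, and the log2 fold change (Myα5KO over ITGA5 fl/fl) was -3.64 (SE 0.079, edgeR adjusted p = 4.42e-12). Markers of the labelled cell type were abundant. The complement genes C1qb and C1qa averaged 2537 and 2438 FPKM, and the 10 macrophage markers summed to 13510 ± 138 CPM in ITGA5 fl/fl against 13150 ± 317 CPM in Myα5KO libraries (SD, n = 3 each), with overlapping groups.

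Collagen transcripts were abundant in these libraries and a few chains held most of them. Over the 6 libraries, Col1a1, a chain of type I collagen, had the highest mean level of any collagen at 61.5 FPKM, above 94.7% of the genes that passed the count filter. It was followed by Col3a1, the chain of type III collagen, at 54.0 FPKM, and by Col4a1 at 53.8 FPKM and Col4a2 at 41.8 FPKM, the common chains of basement membrane. Col1a2, the other chain of type I collagen, averaged 30.8 FPKM. Its total counts were close to those of Col1a1, at 40381 and 42615. Their gap in FPKM thus comes mostly from the deposited gene lengths of 12426 and 6563 bases. Col14a1, which coats fibrils, averaged 24.8 FPKM, and Col15a1, of the basement membrane zone, 15.8 FPKM. The next 5 were Col6a1 at 11.4, Col5a2 at 9.92, Col5a1 at 9.18, Col18a1 at 7.64 and Col8a1 at 6.08 FPKM.

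The neighbours in this order were not all apart. Col3a1 and Col4a1 overlapped, with 43.3 to 63.9 and 49.4 to 58.3 FPKM over the 6 libraries, and so did Col5a2 and Col5a1, with 7.92 to 13.6 and 6.60 to 11.3 FPKM. Further down, Col1a2 (22.8 to 37.8 FPKM) lay above Col15a1 (14.2 to 17.6 FPKM) in every library. For comparison, Postn and Mfap4, the fibroblast markers with the highest mean level, were at 19.2 and 16.0 FPKM, and Csf1r, the receptor that macrophages depend on, was at 442 FPKM. All collagens together took 0.291 ± 0.0238% of counts in ITGA5 fl/fl against 0.267 ± 0.0280% in Myα5KO libraries (SD, n = 3 each), with overlapping groups.

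**Figure D1:**
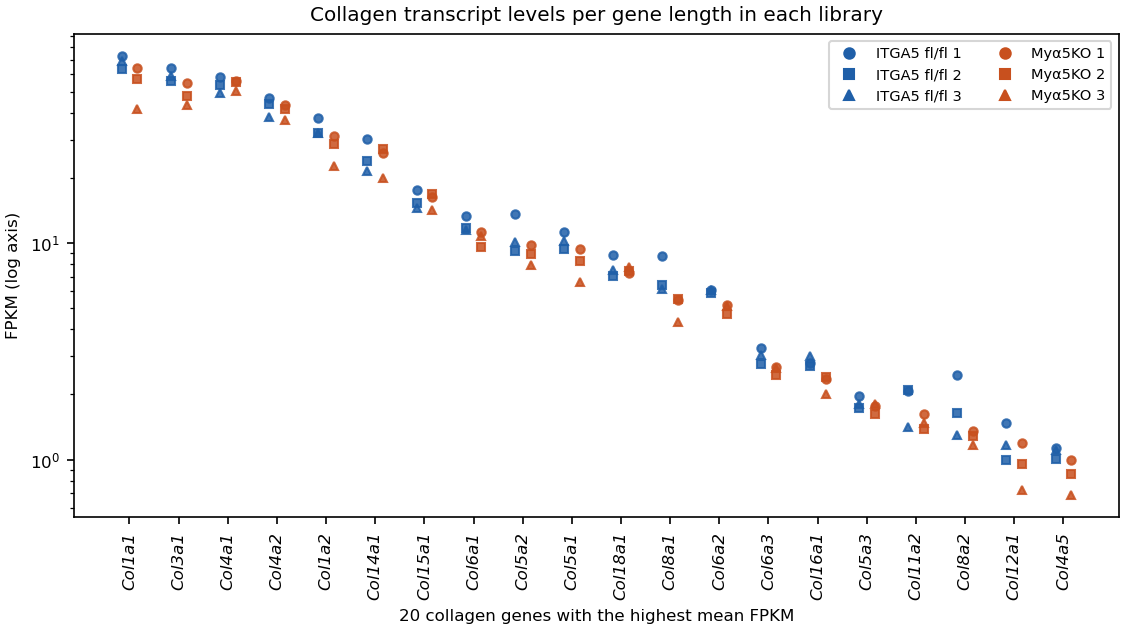
FPKM on a log axis of the 20 collagen genes with the highest mean FPKM, with ITGA5 fl/fl libraries in blue, Myα5KO libraries in orange and a symbol for each replicate. Levels run from 61.5 FPKM for Col1a1 to about 1 FPKM for Col4a5, and ITGA5 fl/fl replicate 1 is the uppermost blue point for most genes.

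At the low end, 10 collagen genes did not pass the count filter. Their totals over the 6 libraries ran from 0 to 58 counts, and the highest were Col4a3 with 58, Col13a1 with 57 and Col22a1 with 16. Col9a1, a chain of cartilage collagen, had 0 counts in every library, which allows up to 3 counts in each by counting error alone.

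The comparison of the groups asks whether collagen transcripts in the macrophage fraction differed between Myα5KO and ITGA5 fl/fl libraries. Of the 34 tested collagens, 2 fell, Col8a1 and Col6a2, and 0 rose at an adjusted p of 0.05 or less (edgeR quasi-likelihood test, two-sided, adjusted over all 14522 genes tested). Among all tested genes 8.75% were called, 5.19% as lower and 3.56% as higher, and the 5.88% of collagens called lower is near that background. DESeq2 called 5 collagens lower, the same 2 with Col1a2, Col3a1 and Col5a1, beside 5.45% of all genes, and 0 higher. Scaling by library size alone left 0 collagens called in either direction, and over all genes it turned 517 higher and 754 lower calls into 1212 higher and 518 lower. Without ITGA5 fl/fl replicate 1 edgeR called 0 collagens, beside 577 of 14903 genes called lower. Without ITGA5 fl/fl replicate 2, ITGA5 fl/fl replicate 3 or Myα5KO replicate 3 it called 1, beside 471, 429 and 650 of all genes. The fit without Myα5KO replicate 1 called 7 of 36 tested collagens lower, beside 671 of 14853 genes.

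Below the threshold, the values leaned one way. At an unadjusted p under 0.05, 15 collagens (44.1%) were lower and 2 were higher, beside 11.4% and 11.7% of all genes. Of the 34 log2 fold changes 28 were negative and 6 positive, and over all genes 6854 were negative and 7668 positive. With library-size scaling 23 collagens were negative and 11 positive, with a median of -0.19 beside 0.10 over all genes. The median collagen log2 fold change was -0.27, with quartiles of -0.34 and -0.05, and the median of all tested genes was 0.01. With TMM scaling, all 3 Myα5KO libraries lay below all 3 ITGA5 fl/fl libraries for 12 collagens (35.3%) and above them for 2 (5.88%). The shares over all genes were 13.8% and 14.9%. These counts are given for TMM scaling only, and the TMM factors themselves differed between the groups without overlap, so separation of single genes may rest on that scaling. The genes share their libraries, so these counts describe the 6 libraries and are not independent observations.

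**Figure D2:**
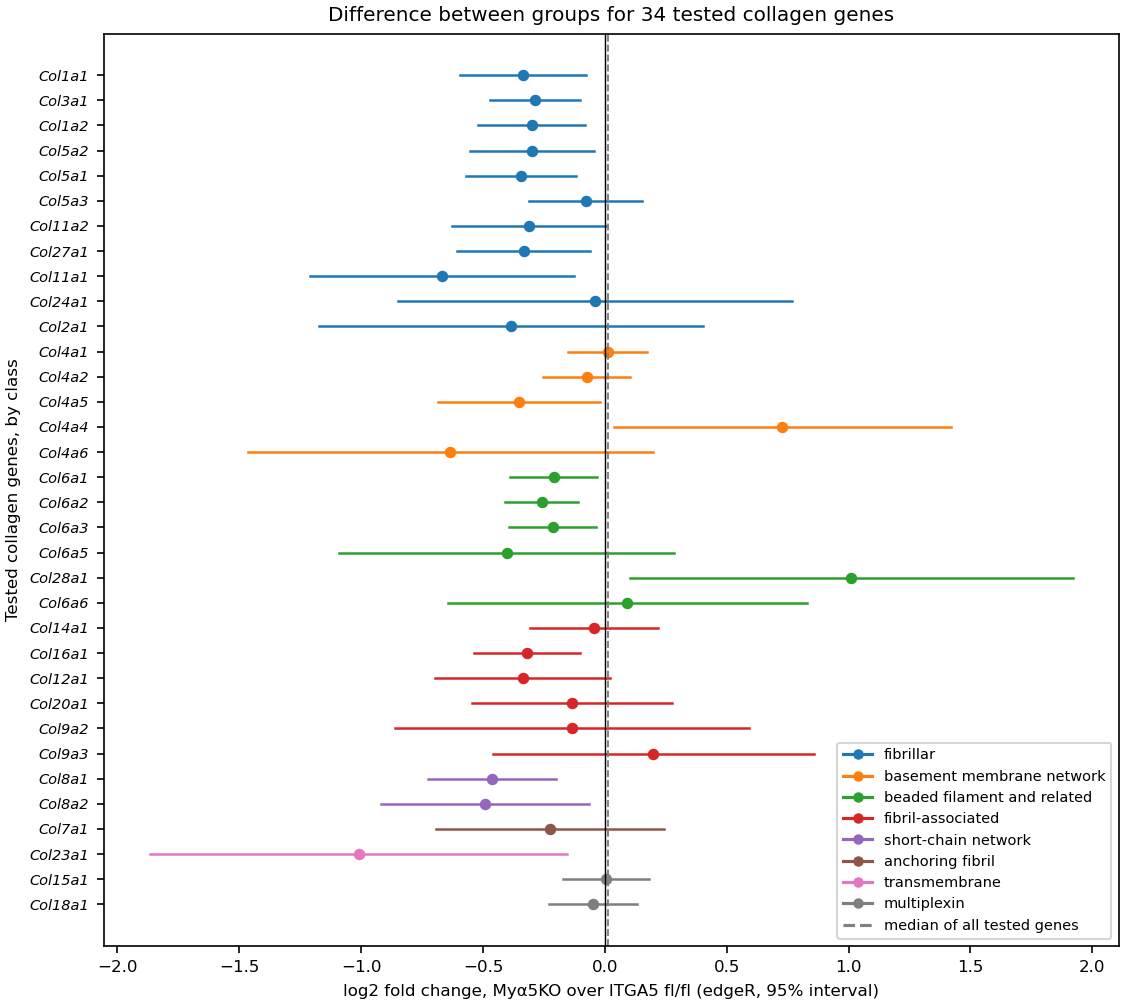
Log2 fold change of each of the 34 tested collagen genes (Myα5KO over ITGA5 fl/fl, edgeR) with its 95% interval, colored by structural class and ordered by level within a class. All 11 fibrillar genes lie left of 0 with the TMM scaling drawn (9 with library-size scaling), while Col4a1, Col15a1, Col14a1 and Col18a1 lie within 0.05 of it, and intervals widen for genes of low count.

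Col8a1 (ENSMUSG00000068196, GRCm38 chromosome 16, 57624258 to 57754737, minus strand) encodes a chain of the short-chain network collagen type VIII. Its level was 68.1, 50.5 and 48.1 CPM in ITGA5 fl/fl against 42.9, 43.2 and 34.6 CPM in Myα5KO libraries. Replicate 1 stood above the other ITGA5 fl/fl libraries and replicate 3 below the other Myα5KO libraries, and the groups did not overlap. The log2 fold change was -0.46 (SE 0.12, adjusted p = 0.0322), the larger of the differences that passed. It was -0.29 (adjusted p = 0.102) without ITGA5 fl/fl replicate 1 and -0.36 (adjusted p = 0.0984) without Myα5KO replicate 3, so the call rests on each of these libraries. With library-size scaling it was -0.38 (adjusted p = 0.0554), and limma on log2(FPKM + 1) gave an adjusted p of 0.142.

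Col6a2 (ENSMUSG00000020241, GRCm38 chromosome 10, 76595762 to 76623630, minus strand) encodes a chain of the beaded filament collagen type VI. Its level was 50.5, 49.2 and 50.4 CPM in ITGA5 fl/fl against 43.0, 39.3 and 43.2 CPM in Myα5KO libraries. The libraries of each group lay close together and the groups did not overlap. The log2 fold change was -0.26 (SE 0.069, adjusted p = 0.0345). It stayed between -0.27 and -0.22 when 1 of ITGA5 fl/fl replicates 1, 2 and 3 or Myα5KO replicate 2 was left out, with adjusted p values of 0.0806 to 0.151 in these 4 fits. With library-size scaling it was -0.18 (adjusted p = 0.114), and limma on log2(FPKM + 1) gave an adjusted p of 0.0729.

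The 150 bases before the start of both genes are shown because they are the collagens that passed the test, with those of Col3a1 and Col5a1, which were nearest to the threshold. Sequences are from the RefSeq promoter table (build GRCm38.p6), which held 35 of the 44 collagens, and are written 5′ to 3′ on the strand of the gene. Capitals mark the GC box (GGGCGG or CCGCCC, the letters that Sp1 family factors bind), the CCAAT box (CCAAT or ATTGG) and the TATA box (TATAAA or TTTATA), searched on both strands. None of these sets of letters contains another. The windows hold no exon of GENCODE M21.
Col8a1, chr16:57754738-57754887, minus strand: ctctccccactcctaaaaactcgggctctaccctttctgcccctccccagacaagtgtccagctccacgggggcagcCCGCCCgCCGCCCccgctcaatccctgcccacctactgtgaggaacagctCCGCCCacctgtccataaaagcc
Col6a2, chr10:76623631-76623780, minus strand: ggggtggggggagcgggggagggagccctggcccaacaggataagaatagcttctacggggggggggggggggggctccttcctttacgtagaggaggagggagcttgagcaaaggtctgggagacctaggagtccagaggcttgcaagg
Col3a1, chr1:45311388-45311537, plus strand: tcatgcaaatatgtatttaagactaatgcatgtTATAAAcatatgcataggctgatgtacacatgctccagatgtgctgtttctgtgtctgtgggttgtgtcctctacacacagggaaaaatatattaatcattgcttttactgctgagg
Col5a1, chr2:27886275-27886424, plus strand: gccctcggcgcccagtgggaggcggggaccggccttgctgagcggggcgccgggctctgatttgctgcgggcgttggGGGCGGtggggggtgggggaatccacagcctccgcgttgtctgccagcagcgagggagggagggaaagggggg

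No motif was common to all 4 windows. Col8a1 held 3 GC boxes, Col5a1 held 1 GC box, Col3a1 held 1 TATA box and the Col6a2 window shown held none of the letters searched. A second Col6a2 start in the table, 226 bases downstream, has a window that lies within an exon and held 3 GC boxes. Among all 38 windows of the 35 collagens, 19 (50.0%) held a GC box, 8 (21.1%) a CCAAT box and 4 (10.5%) a TATA box. The shares among 32851 promoter windows of the same length were 28.6%, 24.5% and 7.6%. These matches describe letters in a window and say nothing of binding.

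The fibrillar class lay mostly below 0. Of its 11 tested genes 11 had a negative log2 fold change with TMM, upper-quartile and median-ratio scaling and 9 with library-size scaling. With TMM, 7 (63.6%) were lower at an unadjusted p under 0.05 by edgeR, beside 11.4% of all genes. The adjusted threshold was passed by 0, and the class median was -0.31. Summed over the class, the level was 1862, 1591 and 1667 CPM in ITGA5 fl/fl against 1568, 1399 and 1168 CPM in Myα5KO libraries, so the Myα5KO mean was 80.8% of the ITGA5 fl/fl mean. The groups did not overlap, though ITGA5 fl/fl replicate 2 and Myα5KO replicate 1 lay close together, and with library-size scaling these libraries overlapped and the Myα5KO mean was 85.5%. Markers of fibroblasts were lower in the same libraries, at 80.3% of the ITGA5 fl/fl mean, and their part in the difference was not tested. In bulk samples, fewer cells of a type and less RNA per cell cannot be told apart.

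Col3a1 (ENSMUSG00000026043, chromosome 1, 45311538 to 45349706, plus strand) was at 629, 552 and 578 CPM in ITGA5 fl/fl against 540, 469 and 433 CPM in Myα5KO libraries. The groups did not overlap, and the log2 fold change of -0.29 (SE 0.086) had an adjusted p of 0.0557 by edgeR and 0.0129 by DESeq2. Col1a1 (ENSMUSG00000001506, chromosome 11, 94936224 to 94953042, plus strand) was at 482, 419 and 458 CPM in ITGA5 fl/fl against 423, 376 and 277 CPM in Myα5KO libraries. Here Myα5KO replicate 1 lay above ITGA5 fl/fl replicate 2 and Myα5KO replicate 3 lay far below the rest, and the log2 fold change was -0.34 (edgeR adjusted p = 0.106, SE 0.12).

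Col1a2, whose product pairs with that of Col1a1, was at 470, 404 and 400 CPM in ITGA5 fl/fl against 389, 358 and 288 CPM in Myα5KO libraries. The groups did not overlap, with a log2 fold change of -0.30 (SE 0.10) and an adjusted p of 0.0885 by edgeR and 0.0312 by DESeq2. Type V collagen is incorporated in type I fibrils and limits their width. Its chain Col5a1 was at 95.9, 80.7 and 86.6 CPM in ITGA5 fl/fl against 79.6, 70.6 and 57.0 CPM in Myα5KO libraries (log2 fold change -0.34, SE 0.10, adjusted p = 0.0575 by edgeR and 0.0227 by DESeq2). Without Myα5KO replicate 1, edgeR called Col1a2 (-0.40), Col5a1 (-0.46), Col3a1 (-0.38) and Col1a1 (-0.48) lower on the log2 scale. Without Myα5KO replicate 3 the values were -0.19, -0.22, -0.22 and -0.18 in the same order, and edgeR called none of these 4 genes. Col5a2 had a difference on the log2 scale of -0.30 (edgeR adjusted p = 0.147, SE 0.12) with overlapping groups, and Col5a3, at 1.78 FPKM, one of -0.08 (edgeR adjusted p = 0.714, SE 0.11).

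The common basement membrane chains were close to equal between the groups. Col4a1 (ENSMUSG00000031502, chromosome 8, 11198423 to 11312826, minus strand) was at 436, 402 and 369 CPM in ITGA5 fl/fl against 420, 414 and 384 CPM in Myα5KO libraries. The groups overlapped fully, and the log2 fold change was 0.01 with a 95% interval of -0.15 to 0.17. Col4a2 (ENSMUSG00000031503, chromosome 8, 11312805 to 11449287, plus strand) lies head to head with it, the annotated ends sharing 22 bases. It was at 309, 294 and 254 CPM in ITGA5 fl/fl against 287, 276 and 250 CPM in Myα5KO libraries, a log2 fold change of -0.08 with an interval of -0.25 to 0.10. With library-size scaling the values were 0.09 for Col4a1 and 0.01 for Col4a2.

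The rarer type IV chains, known from kidney and other specialised membranes, were at low levels. Col4a5, at 0.964 FPKM, was at 7.64, 6.81 and 7.46 CPM in ITGA5 fl/fl against 6.71, 5.78 and 4.68 CPM in Myα5KO libraries (log2 fold change -0.35, SE 0.15, edgeR adjusted p = 0.191). Col4a4 was one of the 2 collagens with an unadjusted p under 0.05 in the higher direction, with 1.14, 0.587 and 0.854 CPM in ITGA5 fl/fl against 1.49, 1.28 and 1.47 CPM in Myα5KO libraries (log2 fold change 0.73, SE 0.32, edgeR adjusted p = 0.191). These levels rest on 122 counts over all 6 libraries. Col4a6 had 71 counts in all and a difference on the log2 scale of -0.64 (edgeR adjusted p = 0.354, SE 0.39). Col4a4 starts 71 bases from the untested Col4a3, and Col4a6 starts 1308 bases from Col4a5, in both cases head to head.

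Type VI collagen is assembled from 3 different chains, and the log2 fold changes of the 3 main ones lay between -0.26 and -0.21. Beside Col6a2, Col6a1 was at 58.8, 51.8 and 50.5 CPM in ITGA5 fl/fl against 49.1, 42.1 and 47.9 CPM in Myα5KO libraries (log2 fold change -0.21, SE 0.082, edgeR adjusted p = 0.139). Col6a3 was at 39.4, 33.3 and 36.5 CPM in ITGA5 fl/fl against 32.2, 29.6 and 32.2 CPM in Myα5KO libraries (log2 fold change -0.21, SE 0.083, edgeR adjusted p = 0.137). The groups did not overlap for either gene, and neither passed the threshold. Col6a1 and Col6a2 lie 85161 bases apart in the same direction on chromosome 10, while Col6a3 lies on chromosome 1. Among the genes of alternative chains that can replace that of Col6a3, the tested Col6a5 and Col6a6 were below 0.4 FPKM, with log2 fold changes of -0.40 (SE 0.32) and 0.09 (SE 0.34).

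Col8a2, the partner of Col8a1, was at 11.1, 7.46 and 5.86 CPM in ITGA5 fl/fl against 6.12, 5.78 and 5.31 CPM in Myα5KO libraries. Its log2 fold change of -0.49 (edgeR adjusted p = 0.152, SE 0.20) was close to that of Col8a1, but the groups overlapped, because ITGA5 fl/fl replicate 3 lay below Myα5KO replicate 1. Without ITGA5 fl/fl replicate 1 the value for Col8a2 was -0.22 (edgeR adjusted p = 0.525). Col14a1 (log2 fold change -0.04, 95% interval -0.31 to 0.22), Col15a1 (0.01, interval -0.17 to 0.18) and Col18a1, the source of endostatin (-0.05, interval -0.23 to 0.13), were each close to 0 with overlapping groups, and each was above 0 with library-size scaling.

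Of the 13 tested collagens not described singly so far, none passed the adjusted threshold by edgeR and each was below 3 FPKM. Their log2 fold changes ran from -1.01 to 1.01. Both ends are genes of under 100 counts in all, named here after their values were seen. Col23a1, a transmembrane collagen, had 86 counts (edgeR adjusted p = 0.142) and Col28a1 had 63 counts (edgeR adjusted p = 0.167). Col28a1 was the other collagen with an unadjusted p under 0.05 in the higher direction. Counts of Col20a1, 347 in all, are uncertain. An annotated transcript on the same strand, with 349 counts, shares 79 exon bases (1.54%) with it. The genes that overlap Col3a1 and Col7a1 on the same strand had 0 counts. The other exon overlaps of tested collagens covered at most 6.07% of the exon bases of the gene.

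Chains that form a common trimer stood in like proportions in both groups, with Col4a1 and Col4a2 as the exception. The FPKM ratio of Col1a1 to Col1a2 was 1.94, 1.97 and 2.17 in ITGA5 fl/fl against 2.06, 1.99 and 1.82 in Myα5KO libraries, with overlapping groups. The ratio of Col6a3 to Col6a1 was 0.248 ± 0.0147 and 0.248 ± 0.0090, and that of Col6a1 to Col6a2 was 2.04 ± 0.157 and 2.11 ± 0.068 (SD, n = 3 each), again with overlap. Col8a1 to Col8a2 was 4.04 ± 0.602 and 4.01 ± 0.277, and Col5a1 to Col5a2 was 0.953 ± 0.109 and 0.906 ± 0.064. The ratio of Col4a1 to Col4a2 was slightly higher in Myα5KO libraries without overlap, at 1.25, 1.21 and 1.29 against 1.30, 1.33 and 1.36.

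Between classes the proportions differed. The FPKM ratio of Col4a1 to Col1a1 was 0.796, 0.843 and 0.709 in ITGA5 fl/fl against 0.873, 0.966 and 1.22 in Myα5KO libraries, so all Myα5KO libraries held more Col4a1 per Col1a1. Col1a1, Col1a2 and Col3a1 took 48.9 ± 1.43% of collagen counts in ITGA5 fl/fl against 45.4 ± 2.08% in Myα5KO libraries, and Col4a1 with Col4a2 took 23.0 ± 1.23% and 26.1 ± 1.34% (SD, n = 3 each). In both cases the groups did not overlap. An exact permutation test of 3 against 3 libraries cannot go below p = 0.1, and these differences between classes were not tested.

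**Figure D3:**
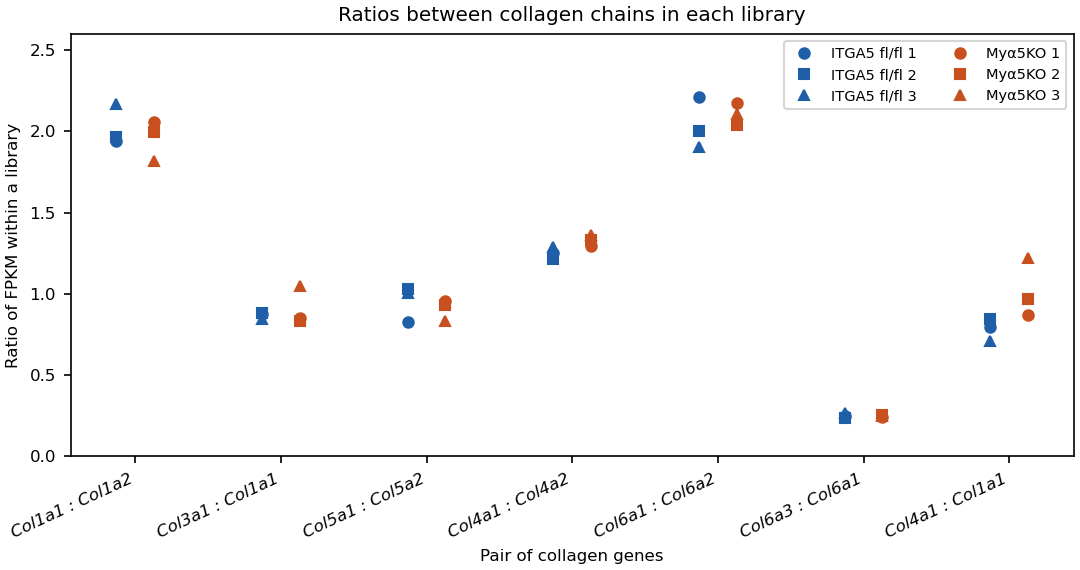
Ratio of the FPKM of paired collagen genes in each library, with ITGA5 fl/fl libraries in blue and Myα5KO libraries in orange. Ratios of chains of one type overlap between groups except Col4a1 to Col4a2 (1.25 against 1.33), and Col4a1 to Col1a1 reaches 1.22 in Myα5KO replicate 3.

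Within a group, single libraries stood high or low for many collagens together. Among the 22 tested collagens with a mean of at least 100 counts, ITGA5 fl/fl replicate 1 was the highest of its group for 20. Myα5KO replicate 3 was the lowest of its group for 15, and Myα5KO replicate 1 the highest for 14. For the 15 tested fibroblast markers, ITGA5 fl/fl replicate 1 was the highest for 11, while Myα5KO replicate 3 was the lowest for 4. Replicates within a group have no order, so these counts describe single hearts. With ITGA5 fl/fl replicate 1 and Myα5KO replicate 3 both left out, an alternative chosen after seeing the data, the median collagen log2 fold change was -0.16 and 0 collagens were called.

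Markers of other cell types were set beside the collagens in the same libraries. The 16 fibroblast markers, which hold no collagen, summed to 456, 371 and 380 CPM in ITGA5 fl/fl against 332, 321 and 317 CPM in Myα5KO libraries, and the groups did not overlap. Of the 15 tested, 3 fell and 0 rose, beside 5.19% and 3.56% of all genes. Without ITGA5 fl/fl replicate 1, 1 fell, beside 577 of 14903 genes. The log2 fold change was negative for 14, and for 12 with library-size scaling. Postn, the matricellular protein periostin of activated fibroblasts, was at 227, 165 and 182 CPM in ITGA5 fl/fl against 148, 153 and 134 CPM in Myα5KO libraries (log2 fold change -0.40, SE 0.10, edgeR adjusted p = 0.0261). Mfap4, a microfibril protein, had a difference on the log2 scale of -0.44 (edgeR adjusted p = 0.0211, SE 0.11), and Cthrc1, of activated scar fibroblasts, one of -0.60 (edgeR adjusted p = 0.00855, SE 0.12).

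Dcn and Pdgfra, 2 further fibroblast markers, did not pass the test. Dcn, the proteoglycan decorin, was at 59.3, 52.3 and 51.8 CPM in ITGA5 fl/fl against 52.7, 49.4 and 53.3 CPM in Myα5KO libraries, with overlapping groups and a difference on the log2 scale of -0.07 (edgeR adjusted p = 0.612, SE 0.074). Pdgfra, a receptor of resident fibroblasts, was at 7.51, 7.52 and 7.80 CPM in ITGA5 fl/fl against 7.13, 5.08 and 6.52 CPM in Myα5KO libraries (log2 fold change -0.28, SE 0.15, edgeR adjusted p = 0.275), without overlap. Dcn, Pdgfra and Csf1r were named after their values were seen. Wif1, with 1 count over all 6 libraries together, was the untested marker.

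Relative to the summed fibroblast markers, the fibrillar chains were level between the groups and the type IV chains were not. This sum leans on 1 gene. Postn, itself called lower, averaged 191 of its 402 CPM in ITGA5 fl/fl and 145 of its 323 CPM in Myα5KO libraries. Col1a1, Col1a2 and Col3a1 together were 3.46, 3.71 and 3.78 times the marker sum in ITGA5 fl/fl against 4.07, 3.75 and 3.15 times in Myα5KO libraries, with means of 3.65 and 3.66. Col4a1 with Col4a2 was 1.63, 1.88 and 1.64 times the sum in ITGA5 fl/fl against 2.13, 2.15 and 2.00 times in Myα5KO libraries, without overlap. Relative to the summed endothelial markers, however, Col4a1 with Col4a2 was at 1.85 ± 0.063 and 1.77 ± 0.216 times (SD, n = 3 each), with overlapping groups. All collagens together were 7.21, 7.71 and 7.47 times the fibroblast sum in ITGA5 fl/fl against 8.57, 8.27 and 7.26 times in Myα5KO libraries, which overlapped.

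The ratio depended on the reference gene. All collagens together were 55.5, 54.7 and 54.9 times the level of Dcn in ITGA5 fl/fl against 54.1, 53.7 and 43.2 times in Myα5KO libraries, so all 3 Myα5KO libraries lay below the others, replicate 3 by far the most. Against Pdgfra the values were 438, 380 and 364 in ITGA5 fl/fl against 399, 522 and 353 in Myα5KO libraries, which overlapped. These ratios were not tested.

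When the summed fibroblast markers entered the edgeR fit as a covariate, the median collagen log2 fold change was 0.01, with 16 of 34 negative, and 0 collagens were called. The covariate itself separated the groups, so genotype and marker level cannot be told apart in that fit, in which calls over all genes fell to 14 higher and 127 lower. Whether macrophages or retained stromal cells were the source of these transcripts cannot be told apart in bulk libraries.

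**Figure D4:**
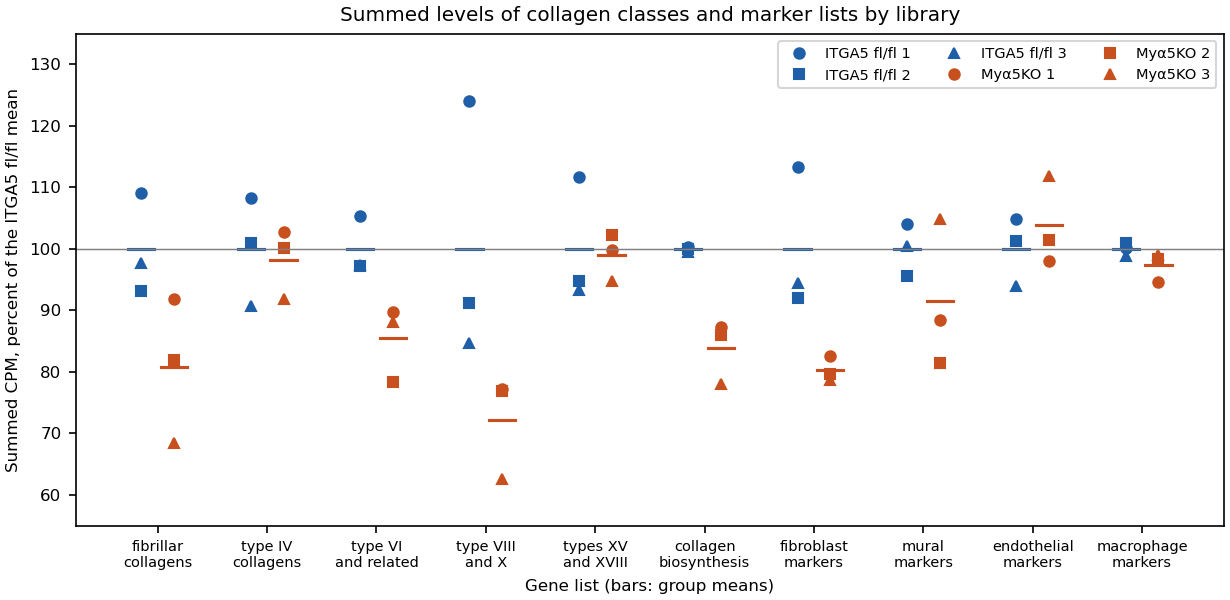
Summed CPM of collagen classes, collagen biosynthesis genes and marker lists in each library as a percentage of the ITGA5 fl/fl mean, with group means as bars; the vertical axis starts at 55%. Fibrillar collagens (80.8%) and fibroblast markers (80.3%) are lower in every Myα5KO library, while type IV collagens (98.2%), endothelial markers (104%) and macrophage markers (97.3%) overlap between groups.

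The other cell types gave mixed values. None of the 8 mural cell markers was called by edgeR or had an unadjusted p under 0.05, and their sum was 161 ± 6.94 CPM in ITGA5 fl/fl against 147 ± 19.4 CPM in Myα5KO libraries. Rgs5 and Pdgfrb led this list at 16.3 and 3.12 FPKM. Of 8 endothelial markers 1 rose and 1 fell, beside 3.56% and 5.19% of all genes. The VEGF receptor Kdr rose (log2 fold change 0.26, edgeR adjusted p = 0.0433) and the tight junction gene Cldn5 fell (-0.44, edgeR adjusted p = 0.0356). Cdh5 led this list at 20.7 FPKM, and the sums overlapped at 371 ± 20.7 and 386 ± 26.6 CPM. Of 6 cardiomyocyte markers 2 fell, beside 5.19% of all genes, Actc1 (-1.03, edgeR adjusted p = 0.0037) and Tnnt2 (-0.69, edgeR adjusted p = 0.0242), and all 6 together made up 20.03 ± 1.24 and 13.6 ± 2.20 CPM, without overlap and with a Myα5KO mean at 67.9% of the ITGA5 fl/fl mean. Actc1 and Tnni3 were the highest at 2.50 and 1.98 FPKM.

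Of the 10 macrophage markers 1 rose, beside 3.56% of all genes, the Fc receptor gene Fcgr1 (log2 fold change 0.27, edgeR adjusted p = 0.0215). The 3 mesothelial and 4 chondrocyte-like markers held 0 calls and no unadjusted p under 0.05 by edgeR, with overlapping sums of 8.21 ± 1.25 and 7.72 ± 1.80 CPM and of 20.7 ± 2.18 and 18.2 ± 1.57 CPM. The highest of these were Msln and Wt1, at 0.805 and 0.695 FPKM, and Comp and Chad, at 4.11 and 1.85 FPKM.

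The genes that modify, process and cross-link collagen were read from a list of 31, of which 30 were tested and Adamts3 was too low. Here 6 fell and 0 rose, beside 5.19% and 3.56% of all genes. Without ITGA5 fl/fl replicate 1, ITGA5 fl/fl replicate 3 or Myα5KO replicate 2, 3 fell, beside 577, 429 and 555 of all genes. There were 12 lower (40.0%) and 0 higher at an unadjusted p under 0.05 by edgeR, beside 11.4% and 11.7% of all genes. The median log2 fold change of the list was -0.11 (-0.03 with library-size scaling). Its summed level was 2753, 2746 and 2732 CPM in ITGA5 fl/fl against 2397, 2362 and 2143 CPM in Myα5KO libraries. The ITGA5 fl/fl libraries lay close together, replicate 1 included, and the groups did not overlap. Without Tgm2, a choice made after seeing the data, the Myα5KO mean was 93.6% of the ITGA5 fl/fl mean, against 83.9% with it. With TMM scaling the groups still did not overlap. With library-size scaling the full list was at 88.7%, without overlap. The sum without Tgm2 is given for TMM scaling only, so its separation may rest on that scaling.

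Tgm2, a transglutaminase that cross-links matrix proteins and is also known from macrophages, was at 990, 963 and 948 CPM in ITGA5 fl/fl against 680, 692 and 542 CPM in Myα5KO libraries (log2 fold change -0.60, SE 0.089, edgeR adjusted p = 0.00141). Lox, the lysyl oxidase that starts cross-linking of fibrillar collagen, was at 64.9, 44.8 and 50.0 CPM in ITGA5 fl/fl against 38.8, 36.7 and 28.5 CPM in Myα5KO libraries (log2 fold change -0.62, SE 0.13, edgeR adjusted p = 0.0112). The study named Tgm2 and Lox from these libraries, so they are no independent evidence. Of the relatives of Lox, Loxl1 and Loxl2 fell, with log2 fold changes of -0.49 (edgeR adjusted p = 0.0154) and -0.51 (edgeR adjusted p = 0.038). Loxl3, at -0.07 (edgeR adjusted p = 0.711), and Loxl4, at 0.17 (edgeR adjusted p = 0.823), did not pass.

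Adamts2 and Pcolce, of procollagen processing, were the other members that fell. Adamts2, a protease that removes the amino-terminal propeptide of fibrillar procollagen, was at 29.8, 22.9 and 25.7 CPM in ITGA5 fl/fl against 20.4, 19.4 and 20.6 CPM in Myα5KO libraries (log2 fold change -0.37, SE 0.10, edgeR adjusted p = 0.0362). Pcolce, an enhancer of the protease that removes the carboxy-terminal propeptide, had a difference on the log2 scale of -0.37 (edgeR adjusted p = 0.0421, SE 0.10). The proteases Bmp1 (-0.11), Adamts14 (-0.12) and Tll1 (0.22) had overlapping groups and did not pass. P4hb, a subunit of prolyl 4-hydroxylase and a general folding enzyme, led the list by level at 203 FPKM, ahead of Tgm2 at 173 FPKM. It was at 599, 625 and 641 CPM in ITGA5 fl/fl against 555, 575 and 512 CPM in Myα5KO libraries, without overlap (log2 fold change -0.18, SE 0.070, edgeR adjusted p = 0.129). None of the hydroxylase, glycosyltransferase, chaperone and export genes passed the adjusted threshold by edgeR. The groups also did not overlap for the prolyl 4-hydroxylase subunit gene P4ha2 (log2 fold change -0.47, edgeR adjusted p = 0.0656). The same held for the chaperone genes Fkbp10 (-0.46, edgeR adjusted p = 0.0952) and Serpinh1 (-0.16, edgeR adjusted p = 0.125). Of the 30 tested genes of the list, 10 (33.3%) lay lower without overlap, beside 13.8% of all genes.

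**Figure D5:**
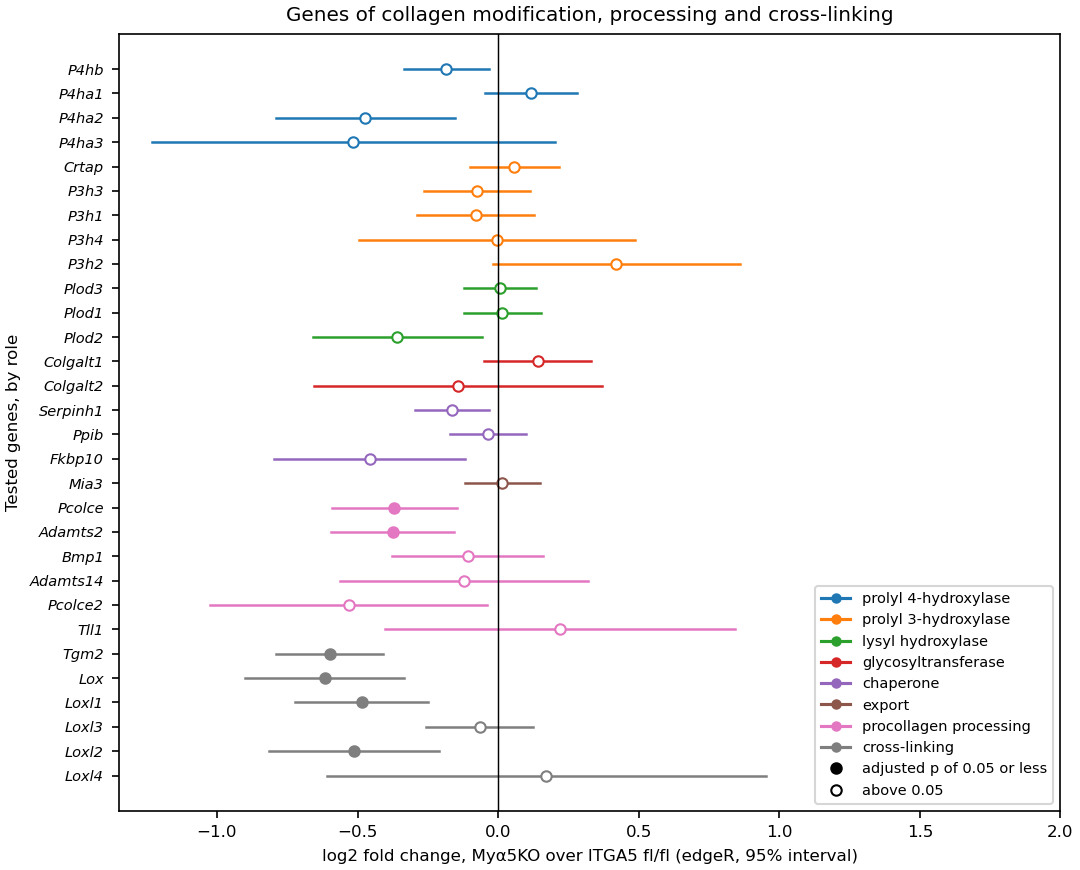
Log2 fold change (Myα5KO over ITGA5 fl/fl, edgeR) with 95% interval of the 30 tested genes of collagen biosynthesis, colored and grouped by role, with filled points for an adjusted p of 0.05 or less. The 6 filled points, from -0.37 for Pcolce to -0.62 for Lox, belong to cross-linking and procollagen processing, and other genes of both roles have open points.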

How the data were processed

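Per the study's methods, polyadenylated RNA of 6 libraries was sequenced as 150 bp paired-end reads, aligned to GRCm38.p6 with TopHat2 2.0.9 and counted per gene with HTSeq 0.6.1; handling of strand and of reads with several matches is not given in the sources used here. The deposited counts are whole reads per gene, not normalized. The authors also deposited FPKM, counts divided by gene length and depth, used here for levels and ratios. Libraries were grouped by title. Counts were tested with edgeR 4.0.16 (R 4.3.3) by the quasi-likelihood test with TMM factors and the default filter (minimum count 10, minimum total 15), two-sided, with no covariate and Benjamini-Hochberg adjustment over 14522 genes. CPM are scaled with TMM factors to 1e+06 counts of tested genes, and overlap of groups in CPM was read with this scaling unless another is named. Alternatives were DESeq2 1.42.0, limma 3.58.1 on log2(FPKM + 1) and log2(FPKM + 0.1) for genes with 1 FPKM in at least 3 libraries, other scalings and filters, a replicate block, each library left out, a fibroblast marker covariate and an adjusted p of 0.01.

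The members, the gene lists and the tests were chosen with earlier results of these data known. Genes named were Itga5, collagens called, the 12 with the highest mean FPKM and the tested chains of their types, up to 3 untested ones, and of each list the genes called and the 2 with the highest FPKM. Others were named after their values were seen. Each library came from 1 heart, so p-values measure the spread between hearts. Counts stem from amplified reads without molecular identifiers, and floors cover counting error only. The scripts were tested on simulated data. Exon overlaps were read from GENCODE M21. A further marker list is not reported here.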

Additional observations from a re-analysis of the deposited data

How the results depend on the processing

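No collagen, biosynthesis gene or fibroblast marker was called higher under any alternative. Numbers in brackets are the calls as lower among all genes in the same fit, 754 in the main fit. The 2 collagens called lower became 5 with DESeq2 (792), 4 with upper-quartile scaling (804) and 0 with library-size scaling (518). They became 9 of 43 tested with no count filter (940 of 27687) and 4 with at least 10 counts in every library (831 of 13258). On log2(FPKM + 1) and log2(FPKM + 0.1) there were 0 (322 and 306 of 11495), and 0 with the fibroblast marker covariate (127). There were 0 at an adjusted p of 0.01 and 0 without ITGA5 fl/fl replicate 1 and Myα5KO replicate 3 together (699). Leaving out 1 library gave 0 to 7 collagens (429 to 671), 0 without ITGA5 fl/fl replicate 1 (577) and 7 without Myα5KO replicate 1 (671). The 6 biosynthesis genes became 3 with library-size scaling, 1 and 1 on the FPKM scales, 0 with the covariate, 3 without the 2 libraries, 1 at an adjusted p of 0.01 and 3 to 5 with 1 library left out. The 3 fibroblast markers became 1 and 1 on the FPKM scales, 0 with the covariate, 1 at an adjusted p of 0.01 and 1 to 3 with 1 library left out. With the covariate, Col8a1 turned to 0.0703 on the log2 scale (SE 0.156) and the median collagen log2 fold change moved from -0.27 to 0.01; both were negative elsewhere. Without 1 library that median was -0.29 to -0.18. The TMM factors, which library-size scaling leaves out, were 0.969, 0.979 and 0.969 in ITGA5 fl/fl against 1.03, 1.02 and 1.03 in Myα5KO libraries, without overlap. Leaving them out moved the median log2 fold change over all genes from 0.01 to 0.10. The fit with no count filter took each variance from the trend over genes (infinite prior df), so the spread of single genes did not enter its tests. Its SE for Col1a1 was 0.074, against 0.12 in the main fit. The cause of the other shifts was not tested, except that the covariate separates the groups.

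The replicate numbers showed no pairing over all tested genes: deviations from the group means of same-numbered libraries correlated at 0.053, -0.087 and 0.039. A pairing limited to few genes cannot be seen in this check. With the replicate number as a block, 5 collagens were called lower, 2 of them shared with the fit without it, beside 6 biosynthesis genes and 3 fibroblast markers. Over all genes that fit called 717 of 14522 lower.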
